A study of Mus musculus with 6 samples.

Results

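The genes described here are 10 genes of iron balance in mouse liver: *Hamp*, *Hamp2*, *Hfe*, *Hfe2*, *Tfr2*, *Tfrc*, *Trf*, *Fth1*, *Ftl1* and *Slc40a1*. They were taken by symbol from a deposited gene table, and all 10 were found among its 24421 genes. The table came from RNA-seq of hepatic mRNA of C57BL/6 mice aged 21 weeks that ate standard chow without restriction, 3 wild-type (WT) littermate controls and 3 *Pai-1*+/- mice. *Pai-1*+/- mice carry 1 null allele in every tissue. The study describes them as bred from *Pai-1*-/- and WT mice, and does not say which cross gave the WT littermates. The labels call the WT animals male and give no sex for the *Pai-1*+/- animals, which the study describes as male. The value used for each gene is the authors' mean normalized count, that is, its reads divided by the size factor of each library and averaged over all libraries of both genotypes. The count columns of single animals carry numbers that match no sample label, so no column could be tied to a genotype. No value per mouse, no SD and no comparison of *Pai-1*+/- with WT livers is therefore given, and every level below is a mean over the 2 genotypes together.

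Liver cells sense, store and ship iron. Hepatocytes secrete hepcidin, a peptide hormone that binds the iron exporter ferroportin and causes its removal from the cell surface, so that less iron enters plasma from gut, macrophages and liver. Hepcidin transcription is driven by bone morphogenetic protein (BMP) signalling through SMAD factors, which reads iron stores, and by interleukin-6 through STAT3 in inflammation. Inside cells, iron-regulatory proteins bind a short hairpin, the iron-responsive element. An element near the start of an mRNA lets these proteins block translation when iron is scarce, and elements after the coding sequence protect the mRNA from decay.

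The 10 genes spanned a wide range in liver. Levels of different genes were compared per length, as the authors' mean normalized count per kilobase of the longest annotated transcript scaled to a sum of 1000000 over all genes (TPM). The highest of the 10 was *Trf* at 13938 TPM, and the lowest was *Hamp2* at 5.16. The median over the 10 genes was 261 TPM, beside 9.54 over all genes with a mean normalized count above 10. No iron gene was at or under a mean normalized count of 10. Of the 10, 7 lay in the highest 10% of the 24004 genes with a known length. Together they held 2.08% of the summed mean normalized counts of the table, 77.4% of which was *Trf* alone.

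**Figure D1:**
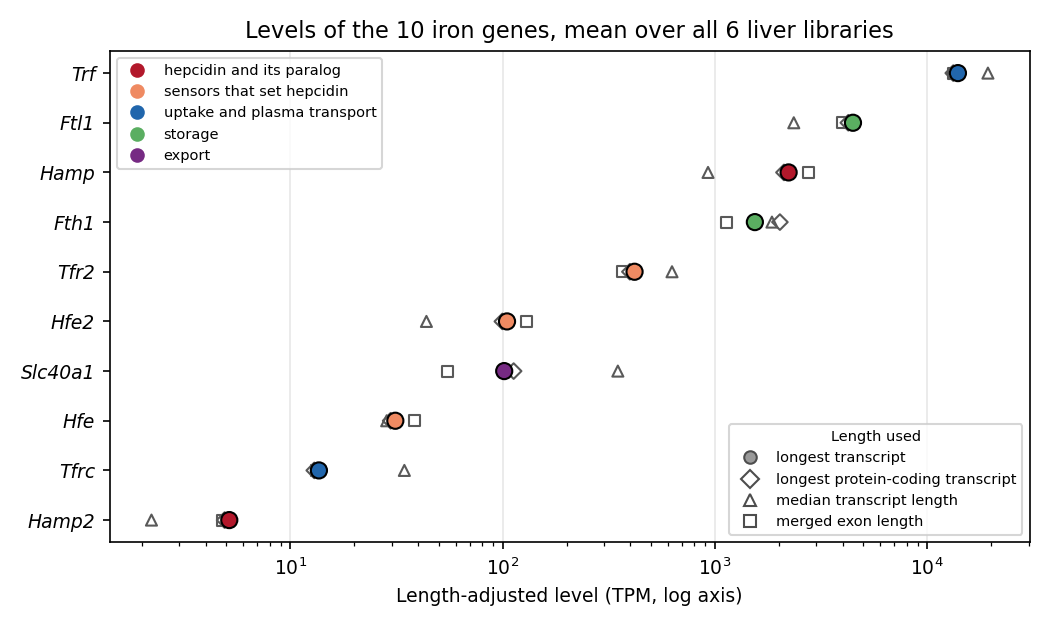
Length-adjusted level of each of the 10 iron genes on a log axis in TPM, from the authors' mean normalized count over all 6 libraries. Filled circles use the longest transcript and are coloured by role, and open symbols use 3 other gene lengths. *Trf* is highest under each length, and *Hamp2* is lowest under each.

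The order of the length-adjusted levels was *Trf*, *Ftl1*, *Hamp*, *Fth1*, *Tfr2*, *Hfe2*, *Slc40a1*, *Hfe*, *Tfrc* and *Hamp2*. The mean used here carries no spread, and the count columns were not used, so no pair of neighbours in this order was tested. The closest neighbours, *Hfe2* and *Slc40a1*, differed by a factor of 1.03 in length-adjusted level. *Slc40a1* came above *Hfe2* when the longest protein-coding transcript was used in place of the longest transcript of any kind, at 113 against 99.7 TPM. The median transcript length put *Slc40a1* at 349 against 43.8 for *Hfe2*, and merged exons put it at 54.8 against 129. *Hamp* and *Fth1* differed by a factor of 1.44, and their order also depended on the gene length used. The other neighbours differed by factors of 2.01 to 3.99 in length-adjusted level. With the median transcript length, *Tfrc* at 34.5 TPM also came above *Hfe* at 28.4, and 4 of the 10 genes kept their place in the order.

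**Figure D2:**
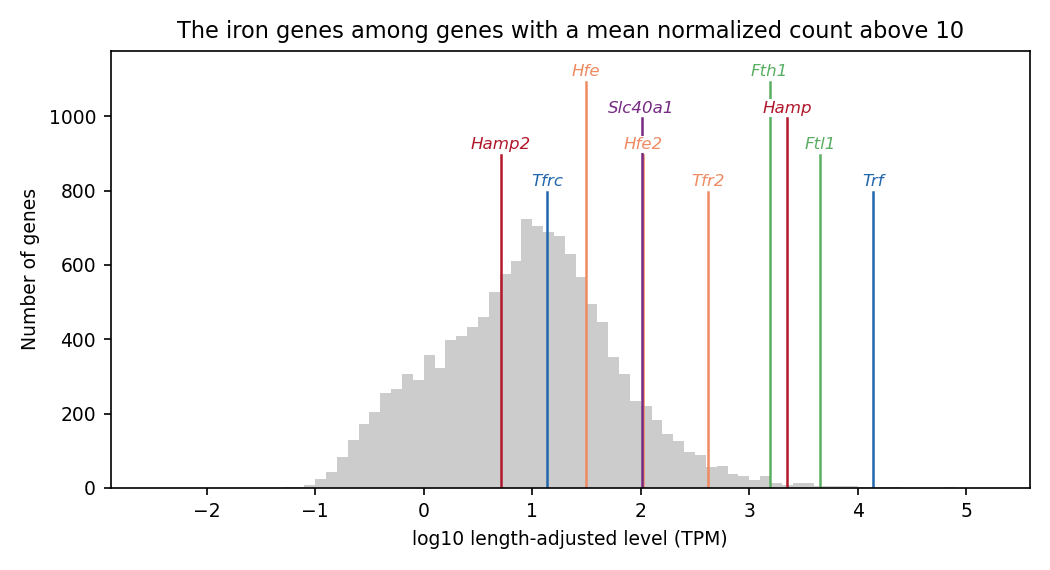
Number of genes (grey bars, genes with a mean normalized count above 10) by log10 length-adjusted level in TPM, with a vertical line for each of the 10 iron genes, coloured by role as in the plot of levels. *Hamp2* lies below the median of these genes of 9.54 TPM, and the other 9 lie above it.

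Hepcidin mRNA was abundant in these livers. *Hamp* (ENSMUSG00000050440, chr7:30942368-30944032, minus strand, mm10) had a mean normalized count of 12276, or 2223 TPM, and ranked 62 of 24004 genes by length-adjusted level. Its transcript is short, with 3 exons, 410 bases and a coding sequence of 252 bases, so by mean normalized count without regard to length it ranked 318. *Hamp2* (ENSMUSG00000056978, chr7:30922372-30924681, minus strand, mm10) is a close copy of *Hamp* in the mouse genome, 17686 bases away on the same strand. Its mean normalized count was 30.4 and its level 5.16 TPM. The length-adjusted level of *Hamp* was 431 times that of *Hamp2*.

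The coding transcripts of the pair were 94.6% identical over 410 aligned bases. Reads could still be told apart in most places. Of the 336 windows of 75 bases in the *Hamp* transcript, the length of the sequenced reads, 13 also occurred in *Hamp2*, or 3.87%. For *Hamp2* the same 13 windows were 3.58% of 363. Reads from these windows can come from either gene, and how the authors' counting treated them is not given in the sources used here. Another 19 windows of *Hamp2* occurred in *Gm44662*, a noncoding gene model that overlaps it on the other strand, and the strand setting of the counting is not given either. The low value of *Hamp2* is therefore uncertain.

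The sequences just before the starts of this pair are shown because the copies share one known hepcidin control motif and differ in another. They are the 150 bases before the RefSeq start of each gene, on the minus strand, from RefSeq promoters on GRCm38.p6 (the assembly named mm10). The *Hamp* stretch lies at chr7:30944030-30944179 and the *Hamp2* stretch at chr7:30924182-30924331. The gene spans given above are from GENCODE, whose starts differ. The *Hamp2* stretch lies inside the GENCODE span of *Hamp2*, and the *Hamp* stretch overlaps the edge of the *Hamp* span by a few bases. Capitals mark the BMP response element GGCGCC and the STAT site TTCNNNGAA, where N is any base. Both strands were searched, and the motifs do not overlap.
Hamp: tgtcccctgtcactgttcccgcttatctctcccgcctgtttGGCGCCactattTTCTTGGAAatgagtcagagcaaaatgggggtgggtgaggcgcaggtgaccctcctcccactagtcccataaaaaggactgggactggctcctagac
Hamp2: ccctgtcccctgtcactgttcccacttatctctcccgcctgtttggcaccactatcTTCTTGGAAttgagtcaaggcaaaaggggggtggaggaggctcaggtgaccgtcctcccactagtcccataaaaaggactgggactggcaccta

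The 2 stretches were 91.8% identical over 147 aligned bases. The *Hamp* stretch held GGCGCC at positions 42 to 47, counted from 1 at its 5′ end, and TTCTTGGAA at positions 54 to 62, with 6 bases between them. *Hamp2* held the same STAT site, and the aligned place of the BMP response element read GGCACC, by the substitution G45A. This was 1 of 12 substitutions between the stretches, and none fell in the STAT site. For comparison, 32851 RefSeq promoters of 300 bases around the start, from 27025 genes, were searched. Of these promoters, 11.9% held GGCGCC, 8.30% held the STAT site and 0.645% held both, as the *Hamp* promoter did. RefSeq promoters were found for 7 of the 10 genes (*Hamp*, *Hamp2*, *Hfe*, *Tfrc*, *Tfr2*, *Fth1* and *Ftl1*), 11 promoters in all. Among the other 5 of these, *Tfrc* held GGCGCC in 1 of its promoters, and none held the STAT site. A match is a run of letters and was not tested for binding, and the motif CACGTG, an E box, was found in none of the 11 against 7.15% of all promoters.

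The 3 genes that carry the iron signal to hepcidin were unequal in level. *Tfr2* (chr5:137569840-137587481, plus strand), the second transferrin receptor, through which hepatocytes sense iron-loaded transferrin, was highest, with a mean normalized count of 17302 and 418 TPM. *Hfe2* (chr3:96525172-96529210, plus strand) encodes hemojuvelin, the co-receptor for BMP ligands, and had a mean normalized count of 2865 and 105 TPM. *Hfe* (chr13:23702034-23710854, minus strand), whose human counterpart is mutated in the most common hereditary haemochromatosis, had a mean normalized count of 1503 and 31.2 TPM. The length-adjusted level of *Tfr2* was 3.99 times that of *Hfe2* and 13.4 times that of *Hfe*. Over the 4 lengths used, the first ratio ran from 2.82 to 14.3 and the second from 9.48 to 22.1. *Tfr2* ranked 299, *Hfe2* 1124 and *Hfe* 3037 of 24004 genes. The *Hfe* transcript is the most lopsided of the 3, with 2352 of its 3572 bases after the coding sequence.

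Of the transferrin pathway, the carrier was far above its receptors. *Trf* (chr9:103204001-103230444, minus strand) encodes transferrin, the plasma protein that carries ferric iron and that the liver secretes. Its mean normalized count of 482730.4 was the second highest of all genes in the table, and by length-adjusted level it ranked 6. *Tfrc* (chr16:32608920-32632794, plus strand), the transferrin receptor by which most cells take up iron, had a mean normalized count of 899 and 13.6 TPM, at rank 5325. The length-adjusted level of *Tfr2* was 30.6 times that of *Tfrc*, or 18.2 times with the median transcript length, and that of *Trf* was 33.3 times that of *Tfr2*.

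Both ferritin subunits were among the most abundant liver mRNAs. *Ftl1* (chr7:45457944-45459884, minus strand) encodes the light chain, which helps the iron core to form, and had a mean normalized count of 58239 and 4466 TPM, at rank 29. *Fth1* (chr19:9980598-9985098, plus strand) encodes the heavy chain, which oxidizes iron for storage, and had a mean normalized count of 42815 and 1541 TPM, at rank 81. The ratio of *Fth1* to *Ftl1* depended on the length used. It was 0.735 in mean normalized counts, 0.345 in length-adjusted level with the longest transcript, and 0.476 with the longest protein-coding transcript, since the longest *Fth1* transcript of 2062 bases is annotated as a retained intron. *Ftl1* was above *Fth1* under each of the 4 lengths used, with ratios of 0.284 to 0.789.

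*Slc40a1* (chr1:45908068-45926523, minus strand) encodes ferroportin, the iron exporter that hepcidin acts on, and is made by hepatocytes and, more strongly, by iron-recycling macrophages. Its mean normalized count was 5383 and its level 102 TPM, at rank 1151. The length-adjusted level of *Hamp* was 21.9 times that of *Slc40a1*, and that of *Slc40a1* was 7.46 times that of *Tfrc*. Over the 4 lengths used, the first ratio ran from 2.66 to 50.1 and the second from 4.12 to 10.1, and in mean normalized counts *Hamp* was 2.28 times *Slc40a1*. The longest transcript of *Slc40a1* has a retained intron. The level of *Slc40a1* ran from 54.8 TPM with the merged exons to 349 with the median transcript length. As a ratio of highest to lowest level, this was the widest range among the 10 genes. In whole liver, the number of cells that make an mRNA and the amount in each cell cannot be told apart.

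Iron-responsive elements were searched in the longest protein-coding transcript of each gene, because they tie several of these mRNAs to cell iron by sequence. The pattern was C, 5 bases, the loop CAGTGN and 5 bases that pair with the first 5, G with T pairs allowed. It matched 4 of the 10 genes, with 7 elements in all, beside 1.34% of 21877 protein-coding genes. This share and those given below count a gene if any of its protein-coding transcripts matched, which is a wider search than that of the 10 genes. The elements below are 30 bases each from the GENCODE transcripts on GRCm38, written as DNA from 5′ to 3′, with the bulged C and the loop of 6 bases in capitals.
Fth1: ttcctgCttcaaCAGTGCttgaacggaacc
Ftl1: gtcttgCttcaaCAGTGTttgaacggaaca
Slc40a1: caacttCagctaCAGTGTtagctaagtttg
Tfrc element 1: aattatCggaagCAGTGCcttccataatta
Tfrc element 2: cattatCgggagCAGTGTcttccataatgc
Tfrc element 3: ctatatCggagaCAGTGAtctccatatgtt
Tfrc element 4: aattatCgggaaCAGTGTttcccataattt

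The elements of *Fth1* (chr19:9982732-9982761), *Ftl1* (chr7:45459778-45459807) and *Slc40a1* (chr1:45925464-45925493) lay in the 5′ UTR, which 0.142% of protein-coding genes matched. The elements of the 2 ferritin mRNAs had the same stem, TTCAA with TTGAA, whereas the stem of *Slc40a1* was AGCTA with TAGCT. The 4 elements of *Tfrc* lay within chr16:32631219-32631739 in the 3′ UTR, from 882 bases after the stop codon on, and 0.590% of protein-coding genes had a match in the 3′ UTR. Each element lay within a single exon. The genes with a 5′ UTR element had levels of 102 to 4466 TPM, and *Tfrc* was at 13.6. *Hamp*, *Hamp2*, *Hfe*, *Hfe2*, *Tfr2* and *Trf* had no match to these letters.

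**Figure D3:**
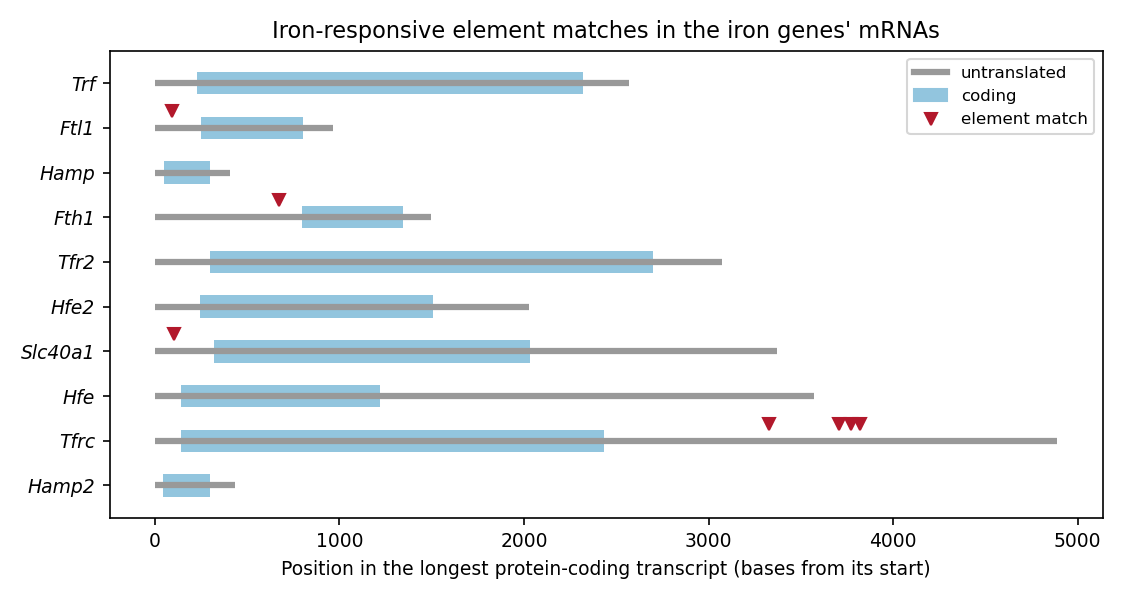
The longest protein-coding transcript of each iron gene, in bases from its start, with untranslated parts in grey, the coding sequence in blue and element matches as red triangles. *Fth1*, *Ftl1* and *Slc40a1* each have 1 match before the coding sequence, and *Tfrc* has 4 after it. Positions hold only for the transcript drawn, and that of *Fth1* has 795 bases before its coding sequence.

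The precision of each value also depends on whether its reads can be assigned. In *Hfe2*, *Tfrc*, *Tfr2* and *Slc40a1*, none of the 75-base windows of the longest protein-coding transcript occurred in another annotated gene. In *Ftl1*, 84.8% of windows did, and the ferritin copy *Ftl1-ps1*, annotated as protein-coding, alone held 66.0% of the windows. *Gm10252*, which overlaps *Ftl1* on the other strand, held 31.5%, and *Gm15590* and *Ftl2-ps* held 27.2% and 26.0%. In *Trf*, 78.6% of windows also belonged to *Gm20425*, a gene model that overlaps *Trf* on the same strand. None of these copies and overlapping models has a row under its GENCODE symbol in the deposited table, and rows under older symbols were not searched for. In *Fth1* the share was 2.32%, in *Hamp2* 8.82% and in *Hfe* 0.286%. The levels of *Ftl1* and *Trf* are uncertain to the extent that such reads were dropped or split, which was not tested.

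**Figure D4:**
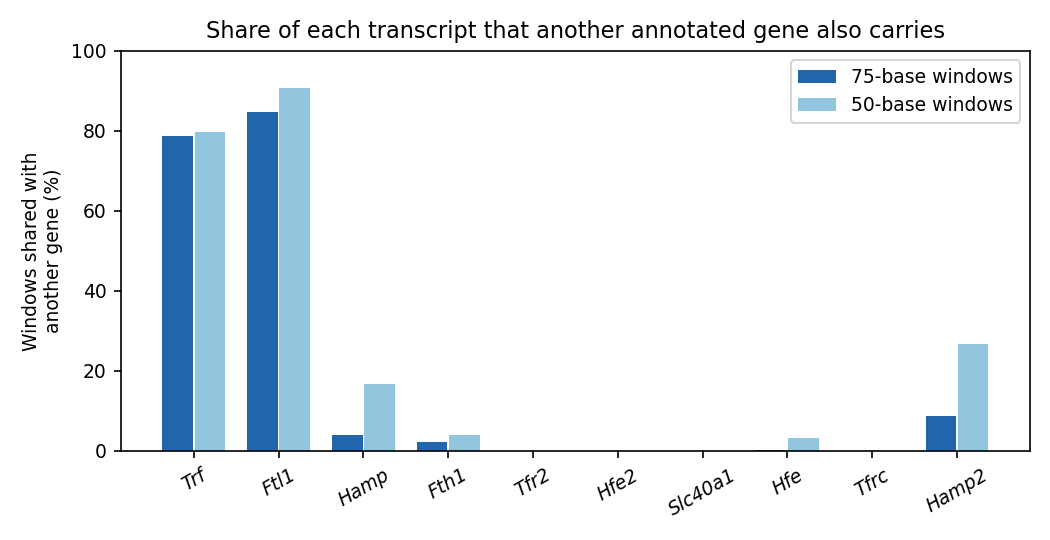
Percent of windows of 75 bases (dark) and 50 bases (light) in the longest protein-coding transcript of each iron gene that also occur in a transcript of another annotated gene on either strand. *Ftl1* (84.8%) and *Trf* (78.6%) stand apart at 75 bases, and *Hfe2*, *Tfrc*, *Tfr2* and *Slc40a1* are at 0.

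The partners of these genes were measured in the same livers. Their levels, and their places against the 10 genes, are given with the longest transcript only. Of 17 genes of BMP and SMAD control, 16 had a mean normalized count above 10, and the median was 11.4 TPM. The highest was *Tmprss6*, a membrane protease of hepatocytes that cleaves hemojuvelin and so restrains hepcidin, at 289 TPM, 1 of 2 genes of the list above *Hfe2*. The other was *Furin*, which processes prohepcidin and hemojuvelin, at 126. The lowest was *Fam132b*, the erythroid hormone erythroferrone, at 0.0283 TPM. The iron-sensing ligand *Bmp6* stood at 2.68 and *Bmp2* at 12.6, and both are made by endothelial cells of the liver.

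Of 7 genes of interleukin-6 signalling, 6 had a mean normalized count above 10, with *Stat3* highest at 55.9 TPM and *Il6* lowest at 0.0218. Among the iron-regulatory proteins, *Aco1* (iron-regulatory protein 1, an aconitase when it holds its iron-sulphur cluster) was at 147 and *Ireb2* (iron-regulatory protein 2) at 46.2. *Fbxl5*, which marks the latter for degradation, was at 17.8.

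All 11 genes of iron import, reduction and haem-iron scavenging had a mean normalized count above 10. *Hpx* (hemopexin, which binds free haem) and *Hp* (haptoglobin, which binds free haemoglobin) were at 7910 and 7049 TPM, between *Trf* and *Ftl1*. *Slc39a14*, the importer of iron that is not bound to transferrin, was at 95.0. With the longest transcript this was 6.97 times the length-adjusted level of *Tfrc*, and this ratio was not computed with other lengths. *Cybrd1*, the duodenal ferric reductase, was lowest at 0.152. *Cp*, the plasma ferroxidase ceruloplasmin, led its list of 5 at 789, and its membrane relative *Heph* was lowest at 0.611.

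The 6 genes of mitochondrial iron had a median of 20.6 TPM, with *Nfs1* (cysteine desulfurase) highest at 77.5. Of 15 genes of haem synthesis and breakdown, 14 were measured and all 14 had a mean normalized count above 10, with a median of 68.8. *Alas1*, the rate-limiting enzyme of haem synthesis in liver, was highest at 629, and *Ppox* was lowest at 9.25. *Flvcr1* was not analysed here. All the lists were chosen with earlier results of these data known, and their levels are descriptions.

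**Figure D5:**
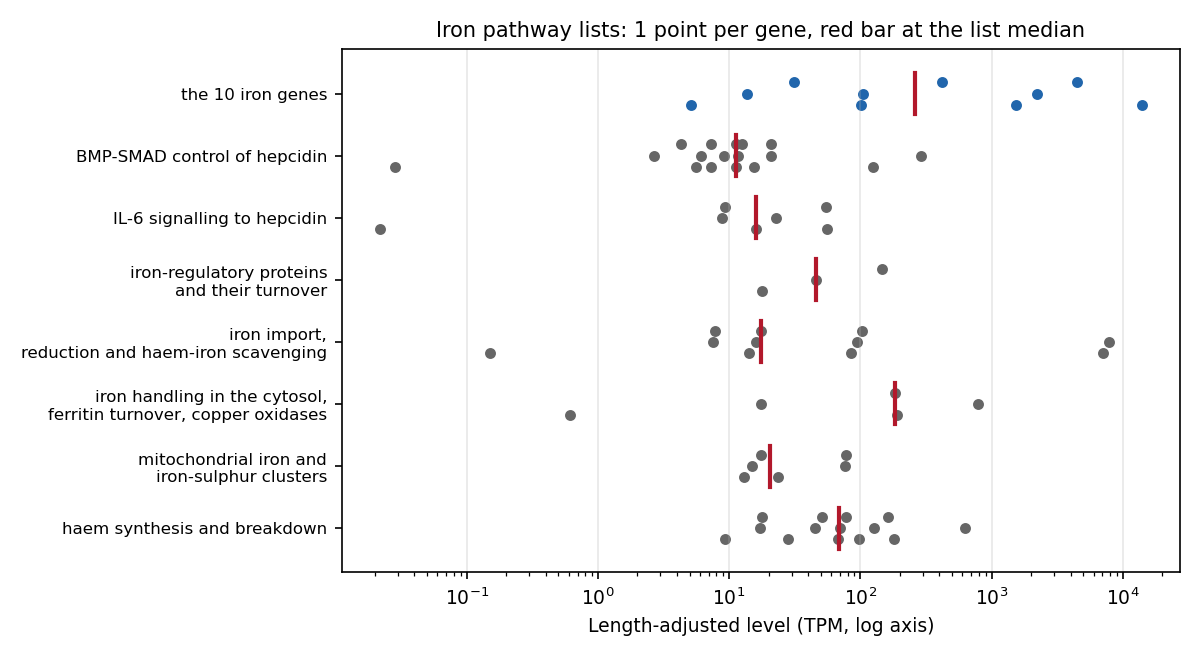
Length-adjusted level in TPM on a log axis for the genes of each iron list (grey) and for the 10 iron genes (blue), 1 point per gene, with a red bar at the median. The 10 iron genes have the highest median of the lists drawn at 261, and single carriers such as *Hpx* and *Hp* reach the range of *Trf* and *Ftl1*.

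Hepatocyte genes led the table, as the liver label requires, with *Alb* ranked 1 of all genes and the 5 hepatocyte markers at 982 to 78667 TPM. Markers of other cells were present at lower levels, 5.91 to 86.6 for Kupffer cells, 5.25 to 47.1 for endothelial cells, 3.31 to 65.8 for stellate cells and 0.367 to 3.07 for lymphocytes. All 6 globin genes were listed at 0, although *Alas2*, the erythroid enzyme of haem synthesis, had a mean normalized count of 2136. By the definition of this mean, a 0 is no read counted in any library, and 6743 of the 24421 genes were at 0. Why the globin genes were among them was not tested. Their values are therefore given only as listed, and the share of red cell RNA was not tested. The livers had been flushed with saline. The genotype labels could not be checked in single libraries. The mean normalized counts of the table sum to 30045982.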

How the data were processed

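Liver mRNA from 3 mice of each genotype was sequenced as single-end reads of 75 bases. The authors mapped reads with STAR against mm10 and ran DESeq2 (RNA Express on BaseSpace), and the submitters' processing notes also name HOMER. Versions, annotation, strand setting and the handling of reads with several places are not given in the sources used here. The signal used here, deposited by the authors, is each gene's normalized count (reads over the size factor) averaged across both genotypes. The table also holds the authors' fold changes, standard errors, test statistics and p-values, which were not used. A second deposited table holds whole-number counts in 6 columns headed by animal numbers. These 6 columns were not used because no label ties them to a sample. The intended test of the genotypes could not be run, and depth per library was not computed.

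Length-adjusted levels were computed with GENCODE M21 on GRCm38. Of 24421 genes, 98.3% had a length, 668 of them through an older symbol. Promoters, motifs, elements and windows were searched with Python 3.11.15, pandas 2.3.3 and NumPy 2.4.6. Pairs were aligned globally with Biopython 1.88 (match 2, mismatch -3, gap opening -5, gap extension -2, end gap -0.5), and Matplotlib 3.10.9 drew the plots. The calculations were tested on simulated data. The members and lists were chosen with earlier results of these data known. All 10 members are named, and of each list the highest and lowest gene. Some items that this rule would name are not reported here. The other named genes were chosen after their values were seen.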

Additional observations from a re-analysis of the deposited data

How the results depend on the processing

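The count of iron genes in the highest 10% of genes was 7 with the longest transcript, 7 with merged exons, with genes above a mean of 10 only and with the longest protein-coding transcript, and 6 with the median transcript length. The longest protein-coding transcript was chosen after the data were seen. With the median transcript length, 7 of 10 levels moved by more than 1.5 times, among them *Hamp* to 927, *Slc40a1* to 349 and *Tfrc* to 34.5 on the same scale, and *Fth1* at 1855 came above *Hamp*. The median transcript of *Slc40a1* has 478 bases and its longest 3928. With merged exons, 1 level moved by more than 1.5 times, *Slc40a1* to 54.8. With windows of 50 bases, 6 genes shared sequence with another gene, as with 75, and the share rose to 16.6% in *Hamp* and 26.8% in *Hamp2*. No paired analysis was possible because the count columns carry animal numbers and no replicate number. The alternatives for the genotype difference (tool, normalization, filter on low counts and left-out replicates) were not run, because no label ties those columns to a genotype. Depth and spread were not computed from the unused columns, so no interval is given.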
